A study of Mus musculus with 146 samples.

Results

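The synaptonemal complex is the protein structure that holds the paired chromosomes of a germ cell together during meiotic prophase. The genes described here are *Sycp1*, *Sycp2*, *Sycp3*, *Syce1*, *Syce2*, *Syce3*, *Tex12* and *Sycp2l*. They were chosen by name, and all 8 were found among the 52605 gene symbols of the files. Their transcripts were measured as TPM (abundance per transcript length, scaled to a fixed total per library) by Smart-seq2, a full-length single-cell RNA-seq method with ERCC spike-ins, in 146 libraries of single germ cells from newborn mouse ovaries. The mice were untreated C57/BL6J pups at day 0.5, 5 ovaries from pups of 1 litter were digested together, and cells were picked by hand under the microscope by their size. The labels name no animal, so all cells are 1 sample. No test between groups of cells was possible, and every SD below is a spread over cells. A library entered only with at least 1 TPM of *Ddx4*, the germ cell RNA helicase, which all but 1 library had.

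Some libraries looked like repeats of a cell, although the labels mark none as such. In 7 pairs, Pearson's r of log2(TPM + 1) over coding genes was at least 0.991, while the next highest pair reached 0.880 and the median pair 0.706. Each of these pairs was therefore taken as 1 cell and was averaged. The 146 libraries, less 1 without *Ddx4* and 7 repeats, gave the cells described here. A cell had between about 4103140 and 17440700 reads assigned to genes, and the median cell had about 9509200. Besides *Ddx4*, which the entry rule fixed, the other 8 germ cell markers listed all averaged over 1 TPM in these cells. Of the 8 pregranulosa markers, 2 averaged over 1 TPM, and their sum was under 1 TPM in 97 cells. Among them *Foxl2*, a defining gene of those somatic cells, reached 1 TPM in 4 cells and *Gata4* in 9. The study had screened the cDNA by PCR and removed samples with *Foxl2*. The cells had thus been selected on this gene, and the part of that screen in its low level was not tested. Of the 6 stroma markers, 5 averaged over 1 TPM, their sum reached 873 TPM, and *Nr2f2* was over 1 TPM in 50 cells. Globin RNA of blood was present in most cells, and only 32 held under 1 TPM of it.

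SYCP2 and SYCP3 lie along the axis of each chromosome and form the lateral elements. SYCP1 is the transverse filament that spans the gap between homologs, and SYCE1, SYCE2, SYCE3 and TEX12 build the central element where the filaments meet. SYCP2L is a relative of SYCP2 known from the oocyte, where it associates with centromeres. In the mouse ovary the complex forms before birth and is taken apart as oocytes reach the arrest of late prophase, around the time at which germ cell cysts break into primordial follicles.

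In GRCm38, the 8 genes lie on 8 different chromosomes, from GENCODE M21. *Sycp1* is at chr3:102818499-102936100, *Sycp2* at chr2:178345293-178407685 and *Sycp3* at chr10:88459569-88473236. *Syce1* is at chr7:140777229-140787852, *Syce2* at chr8:84872111-84888221 and *Syce3* at chr15:89390174-89410503. *Tex12* is at chr9:50556819-50561325 and *Sycp2l* at chr13:41114307-41174351. *Sycp3*, *Syce2* and *Sycp2l* are on the plus strand and the other 5 on the minus strand.

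Promoter windows of all 8 genes were taken from RefSeq (GRCm38.p6), from 250 bases before to 50 bases after the start site, and were searched on both strands for 5 motifs. GCGGGAA is a site known for E2F6, a repressor of germline genes. CACGTG and CAGGTG are E-boxes, CNCCTCAG is known from promoters bound by the meiotic inducer STRA8, and TAATTG is a homeobox site known for NOBOX. The 5 windows printed here belong to the genes whose levels differed most along the order of cells, *Sycp2* and *Sycp2l*, to the filament gene *Sycp1*, and to *Sycp3* and *Tex12*, which hold several of the motifs. Each is read 5′ to 3′ on the strand of the gene, and only bases upstream of the first annotated start are shown, with matches to any of the 5 motifs in capitals. They lie at chr3:102936101-102936350, chr10:88459337-88459568, chr9:50561326-50561518, chr2:178407686-178407908 and chr13:41114169-41114306.
Sycp1: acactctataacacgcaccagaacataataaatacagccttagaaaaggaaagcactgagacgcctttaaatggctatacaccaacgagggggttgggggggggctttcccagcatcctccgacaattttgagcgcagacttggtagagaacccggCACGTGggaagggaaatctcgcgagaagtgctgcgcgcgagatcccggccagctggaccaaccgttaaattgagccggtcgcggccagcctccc
Sycp3: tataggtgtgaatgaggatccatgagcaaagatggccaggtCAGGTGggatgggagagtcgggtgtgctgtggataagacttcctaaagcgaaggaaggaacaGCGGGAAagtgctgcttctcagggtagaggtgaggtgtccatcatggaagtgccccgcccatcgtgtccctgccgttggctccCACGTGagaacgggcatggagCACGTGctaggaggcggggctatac
Tex12: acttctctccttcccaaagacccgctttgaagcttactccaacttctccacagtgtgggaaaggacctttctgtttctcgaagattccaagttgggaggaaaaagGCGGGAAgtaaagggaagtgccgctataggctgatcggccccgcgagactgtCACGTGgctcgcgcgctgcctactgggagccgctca
Sycp2: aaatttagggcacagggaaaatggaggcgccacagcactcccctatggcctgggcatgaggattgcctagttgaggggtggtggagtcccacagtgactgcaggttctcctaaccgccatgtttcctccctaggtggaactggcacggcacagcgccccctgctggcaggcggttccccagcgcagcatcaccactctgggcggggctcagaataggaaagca
Sycp2l: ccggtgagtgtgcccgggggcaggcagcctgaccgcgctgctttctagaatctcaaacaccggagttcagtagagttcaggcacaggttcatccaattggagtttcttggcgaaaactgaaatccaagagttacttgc

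CACGTG was found in windows of 4 of the 8 genes (*Sycp1*, *Sycp3*, *Syce2* and *Tex12*), against 7.15% of all 32851 windows of the table. GCGGGAA was found in 3, *Sycp3*, *Syce2* and *Tex12*, against 4.60% of all windows. In *Sycp3* it began 147 bases before the start site, and in *Tex12* within 2 bases of that distance. *Sycp3* held CACGTG at 2 places, 64 and 43 bases before the start. CNCCTCAG matched in 3 genes (*Sycp1*, *Syce2* and *Tex12*), against 7.94%, but in *Sycp1* and *Tex12* outside the bases printed. CAGGTG was in 3 of the 8, against 20.2% of all windows, and TAATTG in *Syce3* alone, against 8.0%. None of the 5 motifs was found in the windows of *Sycp2* and *Sycp2l*, which says only that these letters are absent there. For *Syce2* and *Syce3* the table lists 2 windows each, so these genes had more bases searched. A match is a description of sequence and not a binding site.

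The lateral element gene *Sycp3* was the most abundant member. It ran from 70.5 TPM in the lowest cell through a median of 2450 to 6371 in the highest, and ranked 15th by mean among all coding genes. *Sycp1* ran from 228 through 1040 to 2413 TPM. *Sycp3* was the highest member in all but 10 cells, in which *Sycp1* was.

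Central element genes followed. *Syce2* ran from 6.83 through a median of 293 to 1965 TPM, *Tex12* from 0 through 280 to 1432, and *Syce1* from 0.173 through 220 to 1045. These neighbours did not separate: *Syce2* was above *Tex12* in 77 cells, and *Tex12* was above *Syce1* in 77. *Sycp2* ran from 0.0166 through 129.8 to 1042 TPM, and *Syce1* was above it in 99 cells. *Syce3*, which links the filament to the central element, was low, from 0 through 10.6 to 73.9 TPM, and its median rested on 20 estimated reads. *Sycp2l* was lowest by median, at 2.86 TPM with a highest cell of 111.4, and *Syce3* was above it in 71 cells. By mean, *Sycp2l* at 20.9 TPM was above *Syce3* at 12.6.

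**Figure D1:**
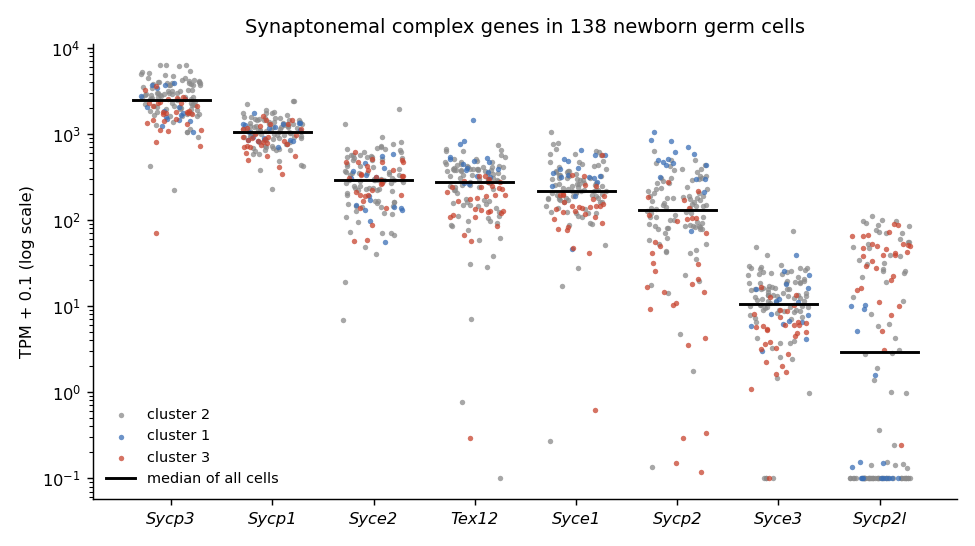
TPM plus 0.1 on a log axis of each member in each cell, coloured by cluster, with the median as a bar. *Sycp3* and *Sycp1* form narrow bands at the top, while *Sycp2l* runs from many cells at or near 0 to 111.4 TPM.

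Spread between cells also differed from member to member. *Sycp1* varied least, with an SD of 389 TPM on a mean of 1072 (36.3%), and no cell was under 10% of its median. *Sycp3* had a coefficient of variation of 47.9%, *Tex12* 65.6%, *Syce1* 65.2%, *Syce2* 73.4% and *Syce3* 80.8%. *Sycp2* reached 100% and *Sycp2l* 139.2%, so the axis gene and its relative were the most uneven of the 8.

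*Sycp1*, *Sycp3*, *Syce1* and *Syce2* were detected, at 0.1 TPM or more, in every cell (exact Clopper-Pearson 95% interval 97.4% to 100%). *Tex12* was detected in all but 1, *Sycp2* in all but 3 and *Syce3* in all but 5. *Sycp2l* was detected in 79 (57.2%, interval 48.5% to 65.6%), and among those cells its median was 31.4 TPM. Intervals cover counting error over cells only, since all cells come from 1 pool of ovaries.

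The pairs taken as repeats gave an estimate of the error between libraries of a cell for each member. All 7 lay in cluster 2. Error from any step that both libraries of a cell shared is not in these values, so the full technical spread can be larger. The technical SD of log2(TPM + 1) over the 7 pairs was 0.04 for *Sycp1*, 0.05 for *Syce2*, 0.06 for *Sycp3* and *Syce1* and 0.11 for *Sycp2*. Against these, the SD over cells was 0.56 for *Sycp1* and 2.08 for *Sycp2*. For *Sycp2l* the pairs say little, since 5 of 7 had no read of it in either library and only 1 held it above 1 TPM, at 41.2 and 36.7 TPM. *Tex12*, at 0.24 against 1.54 over cells, repeated less well. The later library was higher in 5 of 7 pairs for *Tex12*, *Syce2* and *Syce3*, but in 0 for *Sycp3* and in 1 for *Sycp1* and *Sycp2*. *Syce3* had a technical SD of 0.64 against 1.18 over cells, with the largest difference in a pair at 1.42 on the log2 scale, so single-cell values of *Syce3* carry little precision.

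Few cells were low in several members. With *Sycp2l* left aside, 14 cells had 1 member below 10% of its median, 6 had several, and the rest had none. *Sycp2* was the member concerned in 12 cells, *Syce3* in 7, *Tex12* in 4, *Syce1* in 3, and *Sycp3* and *Syce2* in 2 each. Of the clusters described below, cluster 1 held 0 of the cells with a low member, cluster 2 held 8 and cluster 3 held 12. The median was taken over all cells, whatever their cluster. In 5 of the 6 cells with several low members, mitochondrial genes took 15.7% to 29.9% of TPM, against a median of 9.30% over all cells. Their part in the low values was not tested. Cell 10, which lay nearest to the entry limit with 7.49 TPM of *Ddx4*, was one of these, with 848 TPM of *Sycp1*, 0.517 of *Syce1* and none of *Syce3*.

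Cells were grouped to follow the members through the transition. Clusters were rebuilt from 19 genes, 18 that the text of the study names for its clusters, such as *Stag3*, *Figla*, *Nobox* and *Zp3*, and *Taf4b*. *Sycp2*, which the study also used, was left out so that no member entered. Without *Taf4b*, all but 6 cells kept their cluster. Clusters 1, 2 and 3 held 17, 90 and 31 cells, and the first principal component gave an order of cells, cut into 5 bins. Mean *Zp3*, a zona pellucida gene of growing oocytes that was itself used for the order, went from 0.121 TPM in the first bin to 618 in the last. A member was called lower or higher when mean TPM + 1 differed by at least 1.5-fold (0.58 on the log2 scale), which is a rule of size and not a test. Clusters differed in some other ways: median mitochondrial shares were 8.23%, 9.73% and 9.92%, and the median TPM of the spike-ins summed was 10129.5 in cluster 1, 12562 in cluster 2 and 6375 in cluster 3. Scaling by spike-ins put the median gene of cluster 3 over cluster 2 at 0.67 on the log2 scale, where TPM had it at -0.20, and directions below are relative to other genes. The summed level of the blood and endothelial markers, of which 5 of 7 averaged over 1 TPM in each cluster, ran from 1.41 through a median of 51.03 to 324516 TPM in cluster 1, from 0 through 89.6 to 48582 in cluster 2, and from 0 through 29.9 to 43741 in cluster 3. The summed stroma markers had medians of 6.92, 0.952 and 0.371 TPM in clusters 1, 2 and 3, and their highest cells 293, 873 and 38.3. The part of this RNA in the differences below was not tested.

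From cluster 1 to cluster 2, *Sycp2* and *Tex12* were lower and *Sycp2l* was higher, while the other 5 members stayed within 1.5-fold. The higher *Sycp2l* rests on means, with a log2 ratio of 2.64 that was 0.06 from medians. *Tex12*, at -0.78, fell short of the limit from medians (-0.53), with clusters from 2000 variable genes (-0.53) and among cells without globin RNA (-0.54). *Syce2*, at 0.44, passed the limit in 7 alternatives, with ratios from 0.59 to 0.76. Of the 12525 coding genes compared, 26.3% were lower and 24.5% higher by that rule, so 2 and 1 of 8 were near the share among all genes. From cluster 2 to cluster 3, 5 members were lower (*Sycp2*, *Sycp3*, *Syce1*, *Syce3* and *Tex12*) and *Sycp2l* was higher, against 30.4% lower and 18.4% higher of all genes. Scaled by spike-ins, 1 member was lower (*Sycp2*) and 3 higher (*Sycp1*, *Syce2* and *Sycp2l*), with *Syce3* at -0.34 on the log2 scale. By that scaling the median of all genes was 0.67, itself past the limit, so passing it does not set a member apart from other genes. *Sycp1* (0.71) and *Syce2* (0.80) lay near that median, while *Sycp2l*, at 1.996, lay further above it. With clusters from 2000 variable genes, *Sycp2l* was at 0.27, short of the limit. Besides the spike-in values, *Tex12* fell short in 5 other alternatives, with ratios from -0.58 to -0.16, and *Sycp3* in CPM, the share of reads with no regard to transcript length (-0.51), and by Ward's clustering (-0.57). Between the ends, cluster 3 against cluster 1, *Sycp2*, *Syce1*, *Syce3* and *Tex12* were lower and *Sycp2l* was higher. In that comparison 39.5% of all genes were lower and 27.7% higher, and the median log2 ratio was -0.66 over the members and -0.24 over all genes. Between the ends, the members' counts lay near the shares of all genes, while *Sycp2* and *Sycp2l* stood at the low and high end of the ratios.

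*Sycp2* in cluster 1 ran from 74.9 through a median of 474 to 1042 TPM, in cluster 2 from 0.0350 through 140 to 628, and in cluster 3 from 0.0166 through 30.4 to 276. The ranges overlapped, and all 31 cells of cluster 3 lay below the cluster 1 median. Mean levels were 509 ± 248 (SD, n = 17 cells), 171 ± 128.9 (n = 90) and 62.3 ± 71.9 (n = 31). This was a log2 ratio of -3.01 between the ends, or 8.06-fold lower, and 2.17% of the genes compared had a ratio as low or lower. Without any 1 cell the ratio stayed between -3.18 and -2.91, but it was -1.88 among the cells without globin RNA (2 of cluster 1 and 8 of cluster 3) and -2.22 with clusters from 2000 variable genes. In CPM it was -2.39, from medians -3.92 and as a difference of mean log2 -4.09. Along the order the median went through 320, 207, 109.2, 116.8 and 30.4 TPM, and Spearman's rho with the order was -0.63 over all cells.

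*Sycp2l* went the other way. Among the 17 cells of cluster 1, 5 had it detected (29.4%, interval 10.3% to 55.96%). The share was 43 of 90 in cluster 2 (47.8%, interval 37.1% to 58.6%), and every cell of cluster 3 had it (interval 88.8% to 100%). The highest cell of cluster 1 had 10.3 TPM, whereas the cluster 3 median was 39.4 and its highest cell 88.9. Mean levels were 2.11 ± 3.85, 18.4 ± 30.4 and 38.4 ± 24.1 TPM, which made cluster 3 12.7-fold higher than cluster 1 on the TPM + 1 scale (log2 ratio 3.66, with 2.71 for clusters from 2000 variable genes, 5.33 from medians and 5.40 among cells without globin RNA). Detection along the order went from 5 of 28 cells in the first bin through 7 of 28, 16 of 27 and 24 of 28 to 27 of 27, and the mean was highest, at 42.99 TPM, in the fourth bin. Within cluster 2 alone, rho of *Sycp2l* with the order was 0.61 over 90 cells.

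The 2 relatives were present together in many cells. *Sycp2* and *Sycp2l* were both above 10 TPM in 49 cells, *Sycp2* alone in 79, *Sycp2l* alone in 8 and neither in 2. *Sycp2l* exceeded *Sycp2* in no cell of cluster 1, in 7 of 90 of cluster 2 and in 15 of 31 of cluster 3. In cells with *Sycp2l* detected the median of *Sycp2* was 85.3 TPM and in those without it 211. Their rho was -0.43 over all cells and -0.27 within cluster 2, and both genes also follow the order within cluster 2 (rho -0.33 and 0.61), so both values hold that shared trend.

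*Tex12*, of the central element, was lower at the end of the order. Its lowest, median and highest cells were 264, 442 and 1432 TPM in cluster 1, 0, 305 and 743 in cluster 2, and 0.194, 180 and 327 in cluster 3. All 31 cells of cluster 3 lay below the cluster 1 median, and the mean was 2.83-fold lower (log2 ratio -1.50, but -0.69 with clusters from 2000 variable genes). *Syce1*, which docks the filament ends, had cluster medians of 333, 233 and 143.1 TPM and was 2.29-fold lower between the ends (log2 ratio -1.19, but -0.47 when scaled by spike-ins). *Syce3* had medians of 10.98, 13.2 and 5.32 TPM and was 2.07-fold lower between the ends. *Syce1* and *Tex12* from cluster 2 to 3, at -0.80 and -0.72, turned to 0.15 and 0.18 when scaled by spike-ins, below the 0.67 of the median gene.

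*Syce2* differed from its partner *Tex12*. SYCE2 and TEX12 assemble together into the fibre of the central element, yet the medians of *Syce2* were 192, 292 and 307 TPM in that sequence, and its mean in cluster 3 was within 1.5-fold of cluster 1 (log2 ratio 0.17). Of the cells of cluster 1, 15 of 17 had more *Tex12* than *Syce2*, against 38 of 90 in cluster 2 and 8 of 31 in cluster 3. The median ratio of *Tex12* to *Syce2* within a cell was 2.46 in cluster 1, 0.785 in cluster 2 and 0.660 in cluster 3, with a highest cell of 3.52 and a lowest of -6.57 on the log2 scale, both in cluster 2. That call for *Syce2* changed with the setting, since the ratio was 0.67 from medians, 1.02 scaled by spike-ins and -0.70 among the cells that lacked globin RNA, 2 of cluster 1 and 8 of cluster 3.

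*Sycp3* was highest in the middle. Cluster medians were 1843, 2803 and 1775 TPM, and along the order 2277, 2704, 3020, 2399 and 1788. It was 1.63-fold lower in cluster 3 than in cluster 2 (log2 ratio -0.71, but 0.25 when scaled by spike-ins, below the 0.67 of the median gene). Between the ends it was within 1.5-fold, though at -0.62 among cells without globin RNA. The median ratio of *Sycp3* to *Sycp2* within a cell was 4.30 in cluster 1, 22.0 in cluster 2 and 56.5 in cluster 3. *Sycp2* took 10.6% of the summed TPM of the 8 members in cluster 1, 3.65% in cluster 2 and 2.11% in cluster 3, whereas *Sycp3* took 43.1%, 54.9% and 50.7%.

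**Figure D2:**
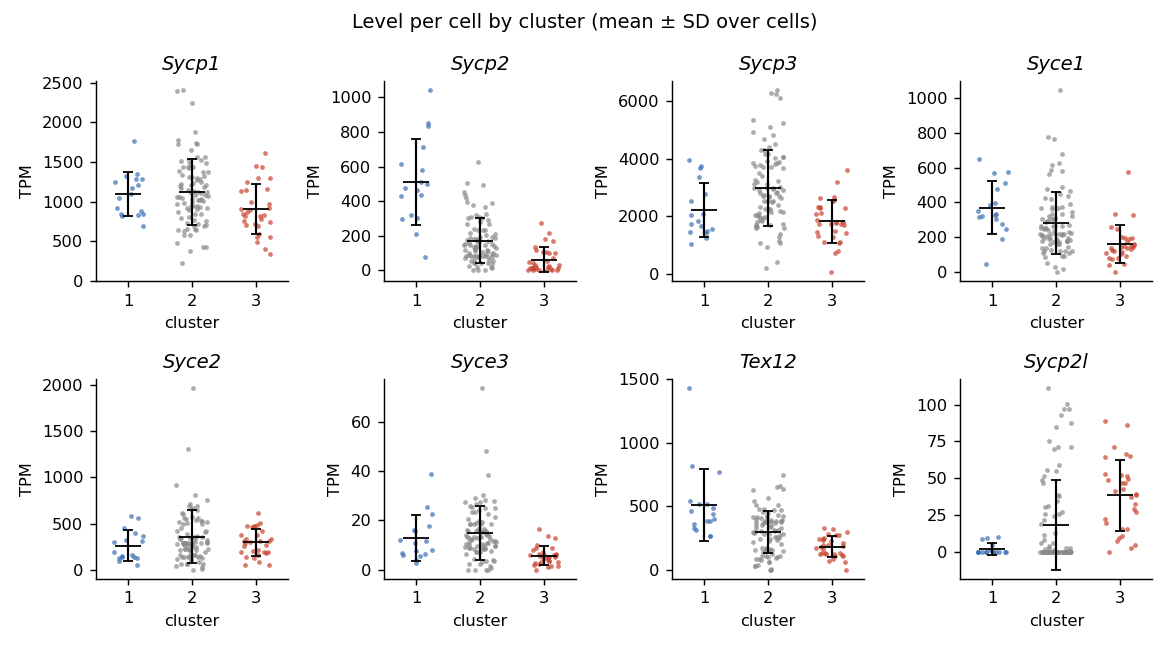
TPM of each member per cell in clusters 1, 2 and 3, with mean and SD over 17, 90 and 31 cells. *Sycp2* steps down from a mean of 509 to 62.3 TPM, *Sycp2l* steps up from 2.11 to 38.4, and the ranges of the clusters overlap for every member. The lower *Sycp3*, *Syce1* and *Tex12* of cluster 3 against cluster 2 turn when scaled by spike-ins, but stay below the 0.67 of the median gene on the log2 scale.

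**Figure D3:**
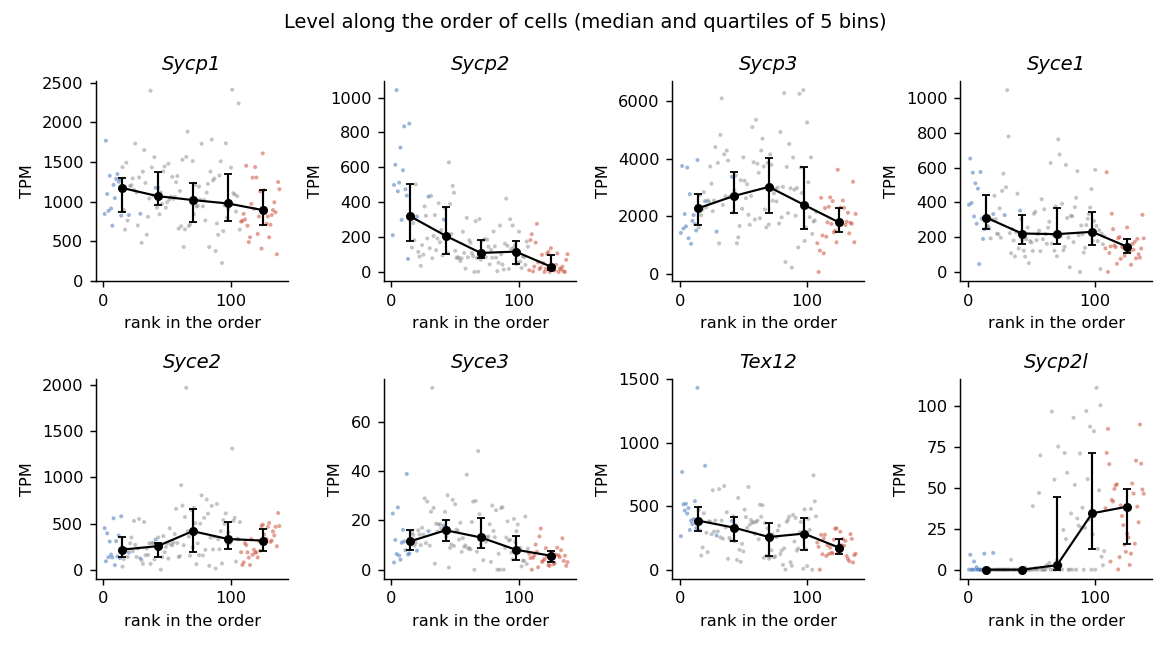
TPM of each member against the rank of each cell in the order, with the median and quartiles of 5 bins. Medians of *Sycp2* go from 320 to 30.4 TPM and those of *Sycp2l* from 0 to 38.6, and *Sycp3* peaks at 3020 in the third bin.

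The transverse filament gene *Sycp1* was even in TPM but not in reads. Its cluster means were 1098 ± 273, 1125 ± 416 and 904 ± 316 TPM, within 1.5-fold throughout. Cluster 3 over cluster 2 passed 1.5-fold in both directions under alternatives. It was -0.92 on the log2 scale among cells without globin RNA and 0.71 scaled by spike-ins, where the median gene was at 0.67. Cluster 3 over cluster 1 was -0.77 among cells without globin RNA. In CPM the means were 2551, 2083 and 1271, a log2 ratio of -1.005 between the ends against -0.28 in TPM. TPM divides the reads by the length of the transcripts they were assigned to. GENCODE M21 lists 4 transcripts of *Sycp1*. Of these, 2 span the gene (3437 and 3189 nucleotides, 33 exons each) and 2 are short, one of 608 nucleotides with 4 exons at the 3′ end of the gene and one of 665 nucleotides with 9 exons at the 5′ end.

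The effective length behind 1 TPM of *Sycp1* was therefore computed from reads and TPM, with the spike-ins as a ruler, a measure chosen after these values were seen. In cluster 1 it ran from 2071 through a median of 3020 to 3291 nucleotides, in cluster 2 from 1082 through 2086 to 3231, and in cluster 3 from 1008 through 1369 to 2334. Of the cells of cluster 1, 13 of 17 were above 2500 nucleotides, against 17 of 90 in cluster 2 and none of 31 in cluster 3. Below 1500 there were 0, 13 and 18 cells. Repeat libraries of a cell differed by at most 62.3 nucleotides.

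The median length was 2.21-fold shorter in cluster 3 than in cluster 1. Among 7133 coding genes with enough reads, 4.44% were shorter by at least 1.5-fold and 4.19% longer, and 1.01% had a ratio as low as that of *Sycp1*. *Sycp2* was longer, with medians of 1560, 2516 and 2360 nucleotides, and it too has short annotated transcripts beside a full length of 5717. *Sycp3*, *Syce1*, *Syce2*, *Syce3* and *Tex12* differed by at most 1.09-fold between the ends. The files give no level per transcript, and which transcript took the reads was not tested.

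**Figure D4:**
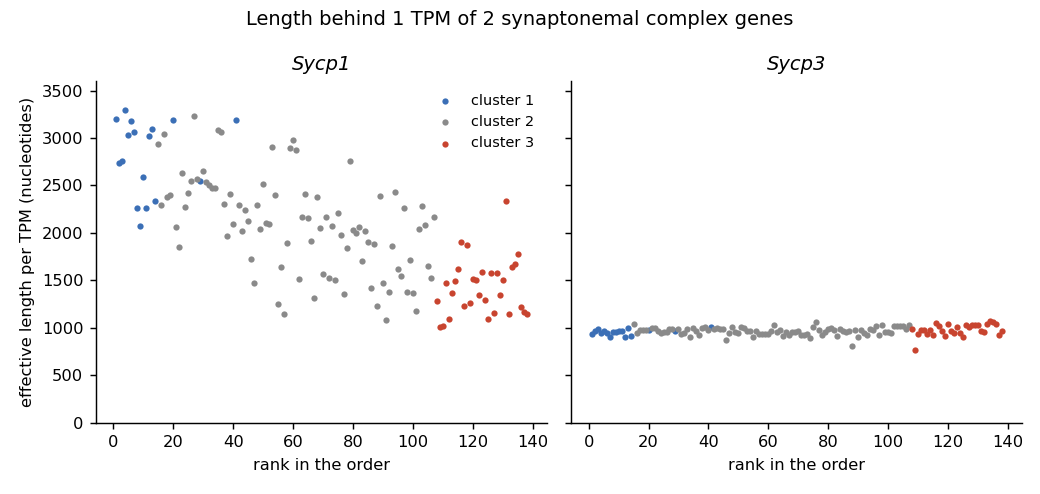
Effective length behind 1 TPM, in nucleotides, of *Sycp1* (left) and *Sycp3* (right) against the rank of each cell in the order, coloured by cluster. *Sycp1* goes from a median of 3020 in cluster 1 to 1369 in cluster 3, whereas *Sycp3* stays near 968 to 979.

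Over the 28 pairs, Spearman's rho ran from -0.43 to 0.40 with a median of 0.14, and 5 pairs were above 0.3 and 4 below -0.3, the latter all with *Sycp2l*. The highest was *Sycp3* with *Syce2*, at 0.40 (0.45 within cluster 2). *Sycp2* had 0.34 with *Tex12* and 0.32 with *Syce1*, but within the 90 cells of cluster 2 these were 0.02 and -0.03. All pairs share library and depth, and those scaled by spike-ins also share the spike-in total, which gave 0.68 for *Sycp3* with *Syce2* and 0.62 for *Sycp1* with *Sycp3*. *Sycp1* with *Sycp2* was 0.04 in TPM and 0.41 in CPM, a pair in which the length behind each TPM differed between cells.

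The gene most like each member across all cells was sought among 7047 coding genes. These had a mean of at least 10 TPM and were detected in at least 50% of cells. The most alike gene was *Smc1b* for *Sycp1* (rho 0.46), *Ccnb3* for *Sycp2* (0.60), *Ubb* for *Sycp3* (0.57) and *Ddx1* for *Syce1* (0.57). For the others it was *Nedd8* for *Syce2* (0.55), *Cgrrf1* for *Syce3* (0.47), *Tex101* for *Tex12* (0.49) and *Tuba1c* for *Sycp2l* (0.66). *Smc1b* is the meiotic cohesin subunit of the chromosome axis. For the mean of the standardised members, the highest were *Tex30* (0.68), *Cacybp* (0.64), *Smc1b* (0.63), *Cnbp* (0.59) and *Atp5f1* (0.57).

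Other meiotic genes gave a scale for the members. Of 43 genes listed, 40 were in the files, and 33 were lower and 3 higher in cluster 3 than in cluster 1 (median log2 ratio -1.57), against 4 and 1 of the 8 members and 39.5% and 27.7% of all genes. Scaled by spike-ins, 26 were lower and 5 higher, with a median of -0.99 where the median of all genes was 0.38. Only 35 of the 40 were over 1 TPM in both end clusters, 29 of them lower and 2 higher. *Rec8*, *Stra8*, *Syce1l* and *Meioc* passed the filter through cluster 1 alone and *Aurkb* through cluster 3 alone, so the direction of these 5 was fixed by the filter. Besides *Rec8*, the axis and cohesin genes were all lower in TPM. *Hormad1*, which marks unsynapsed axes, had means of 1585, 490 and 184 TPM, and *Smc1b* 565, 368 and 169. *Stag3*, the cohesin subunit that was itself used to make the clusters, had 324, 209 and 140. All 8 crossover genes were lower (6 by spike-ins), among them *Hfm1*, a helicase, with means of 146, 56.7 and 13.5 TPM.

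*Six6os1*, the partner of SYCE1 in the central element, had means of 583, 312 and 80.2 TPM, a log2 ratio of -2.85 against -1.19 for *Syce1*. In a cell, *Syce1* was above *Six6os1* in 5 of 17 cells of cluster 1, 38 of 90 of cluster 2 and 23 of 31 of cluster 3. *Fkbp6*, a chaperone linked to synapsis, was within 1.5-fold between the ends, with 582, 736 and 490 TPM. It was lower from cluster 2 to cluster 3 (log2 ratio -0.59). *Trip13*, the ATPase that removes HORMAD proteins from synapsed axes, had 82.3, 45.3 and 25.6 TPM.

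Of 11 genes of DNA breaks and their repair, 8 were lower between the ends and *Rec114* was higher, against 39.5% and 27.7% of all genes. Scaled by spike-ins, 6 were lower and 2 higher. *Spo11*, which makes the breaks, had means of 79.8, 25.6 and 2.70 TPM, and the recombinase *Dmc1* 57.7, 10.8 and 2.72. *Mnd1*, a cofactor of *Dmc1*, stayed within 1.5-fold, with 178, 190 and 226 TPM. The 3 telomere tethering genes measured were all lower (2 by spike-ins). Of the meiotic entry genes, *Meioc* had 388, 17.9 and 0.688 TPM.

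The last list held 4 kinases and cyclins linked to taking the complex apart. *Aurkb*, the kinase of the chromosomal passenger complex, was listed near 0 in cluster 1 (0.032 TPM) and had 5.13 in cluster 2 and 32.2 in cluster 3. *Ccnb1*, cyclin B1, was higher with 48.3, 50.1 and 91.2 TPM. *Plk1* was lower with 36.3, 27.5 and 22.6, though its ratio turned positive when scaled by spike-ins, and *Cdk1* was within 1.5-fold.

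**Figure D5:**
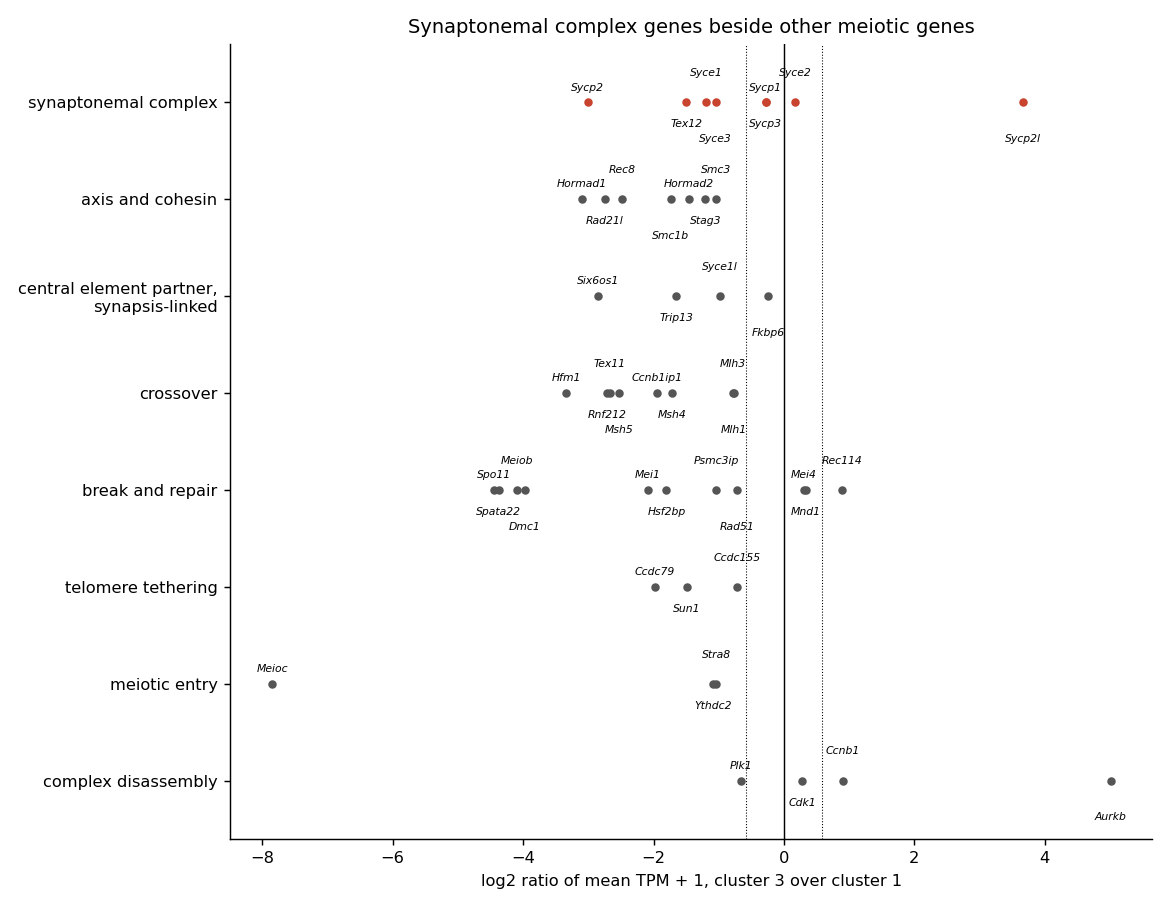
Log2 ratio of mean TPM + 1, cluster 3 over cluster 1, of the 8 members (red) and of 40 other meiotic genes by list (grey), with dotted lines at 1.5-fold. Most genes lie left of the lines (33 of the 40 others, 26 by spike-ins), with *Sycp2* at -3.01, and *Sycp1*, *Sycp3* and *Syce2* lie between the lines. By spike-in scaling *Sycp1*, *Sycp3* and *Syce2* stand at 0.49, 0.40 and 1.02, and the median of all genes at 0.38.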

How the data were processed

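The authors sequenced single germ cells by Smart-seq2 and quantified reads with Salmon against mm10 with spike-in sequences. For each library the authors deposited 1 table by gene symbol, which holds TPM and an estimated count of reads, with FastQC run before. The deposited effective length was used only for the 92 spike-ins, since for a gene with several transcripts it can be a length divided by their number. The members and lists were chosen with earlier results of these data known. Replicates in the sense of animals were not named.

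Libraries with r above 0.95 were averaged as 1 cell. Clusters were made in Seurat 5.3.0 (R 4.3.3) from 19 feature genes (18 of the study and *Taf4b*), using 10 principal components and 20 neighbours; the resolution was raised from 0.1 by 0.05 until there were 3 clusters. They were placed in order so that *Zp3* was high at the end, and cells were ordered by the first component. Ratios are log2 of mean TPM + 1, and a gene was compared if its mean reached 1 TPM in one of both clusters. Length behind 1 TPM is estimated reads over TPM, scaled so that spike-ins with over 100 reads have their deposited length, for genes with at least 10 reads in a cell and in at least 9 cells of each cluster. Named genes are the members, the lists, and the most alike genes by rho. Python 3.11.15, pandas 2.3.3, NumPy 2.4.6 and SciPy 1.17.1 were used. Ratios were tested on simulated data with planted changes larger than 1.5-fold and with spreads capped below those of several members. That run does not show how the 1.5-fold limit performs for these members. Alternatives were other scalings (CPM, spike-ins), pseudocount 0.1, medians, other clusterings, other entry limits, other detection limits and leaving out each cell. Counting repeat libraries separately, cells under 1 TPM of globin RNA, cells under 10% mitochondrial TPM clusters without *Taf4b* and the length measure were added after seeing the data.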

Additional observations from a re-analysis of the deposited data

Results flagged for a closer look

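The library left out for lack of *Ddx4* held reads of *Sycp1*. It had 1408460 reads assigned to genes and no read of *Ddx4*, yet 69 estimated reads of *Sycp1* (58.7 TPM), above the 3 reads that a count of 0 allows, a limit for counting error only. Carry-over between libraries was not tested. *Sycp2* and *Sycp3* had 1 read each and the other 5 members none. The lowest *Sycp1* level among the cells that entered was 228 TPM.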

How the results depend on the processing

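Leaving out any 1 cell changed no call of a member between clusters. From cluster 1 to cluster 2, the number of members lower by 1.5-fold was 1 rather than 2 with median TPM, with clusters from 2000 variable genes and in cells without globin RNA, *Tex12* losing its call in each, and 3 per spike-in. With median TPM *Sycp2l* lost its call, and the 2 higher were *Sycp3* and *Syce2*. The number higher was also 2 rather than 1, by *Syce2*, with the library without *Ddx4* added, with clusters from 17 genes, from 2000 variable genes, without *Taf4b* or by Ward's method, and in cells under 10% mitochondrial TPM. From cluster 2 to cluster 3, 5 lower became 1 per spike-in, 3 by Ward's method, 7 in cells without globin RNA and 4 in CPM, by mean log2, without *Taf4b* and with clusters from 2000 variable genes, and 1 higher became 3 per spike-in and 0 with clusters from 2000 variable genes. Between the ends, 4 lower became 7 in cells without globin RNA, of which cluster 1 held 2, and 1 higher became 2 per spike-in and with median TPM. Per spike-in, the cluster 3 over cluster 2 ratios reversed to 0.25 for *Sycp3*, 0.15 for *Syce1* and 0.18 for *Tex12*, and *Syce3* lost its call. The median gene stood at 0.67 in that setting. *Syce1* between the ends was -0.47 per spike-in, short of the 1.5-fold limit, and for *Tex12* it came to -0.85 per spike-in and, clustering on 2000 variable genes, to -0.69. *Sycp2* was lower and *Sycp2l* higher between the ends under each alternative run. The causes were not tested. No paired analysis was possible because the labels number cells and the report makes no test between groups.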
